A study of Oryza sativa with 36 samples.

Results

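The genotype difference in the response of rice leaves to 48 h of chilling was measured on 12 of the 36 arrays of the series, 3 in each of 4 groups. The groups were chosen by the rule that compares the 48 h change from control in one genotype with that in the other: LTH control, LTH after 48 h at 4 °C, IR29 control and IR29 after 48 h at 4 °C. LTH (Li-Jiang-Xin-Tuan-Hei-Gu) is a japonica landrace known as chilling tolerant, and IR29 is an indica cultivar known as chilling sensitive. Seedlings of both genotypes grew on the same soil plates, the controls stayed at 29 °C, and leaves were sampled in 3 biological replicates per group. The labels give 1 control group per genotype, so the effect of cold cannot be told apart from that of the hours that passed between sampling times. Only 1 line stands for each genotype, so what is measured is a difference between LTH and IR29, not between tolerant and sensitive rice in general.

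Chilling slows membrane transport and enzyme reactions in the leaf while light is still absorbed, so that photosynthesis, redox balance and water uptake fall out of step. Plants answer through calcium signals, through DREB1 (also called CBF) transcription factors that bind promoters of cold-regulated genes, and through abscisic acid (ABA), whose signal is held back by protein phosphatases of type 2C and passed on by kinases of the SnRK2 family. In rice seedlings a long chill also yellows the leaves, as chlorophyll-binding proteins and the enzymes of chlorophyll synthesis decline.

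The study compared these lines to find responses that set a tolerant rice apart from a sensitive one, and the comparison here asks which genes answered 48 h of cold differently in the 2 genotypes. Expression was read on the Affymetrix rice genome array as normalised intensity for 57258 probe sets. The quantity compared is the log2 change at 48 h in LTH minus the log2 change at 48 h in IR29, and it is called the genotype difference here. A positive value means that the LTH change lay above the IR29 change, whether because LTH rose or because IR29 fell. A probe set was called when its Benjamini-Hochberg adjusted p from limma was below 0.05 and its difference was at least 2-fold. A share of 8.71% of all probe sets was called, 5.89% as positive (3371) and 2.82% as negative (1616). The median genotype difference over all probe sets was -0.00, with a median SE of 0.60 on the log2 scale.

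**Figure D1:**
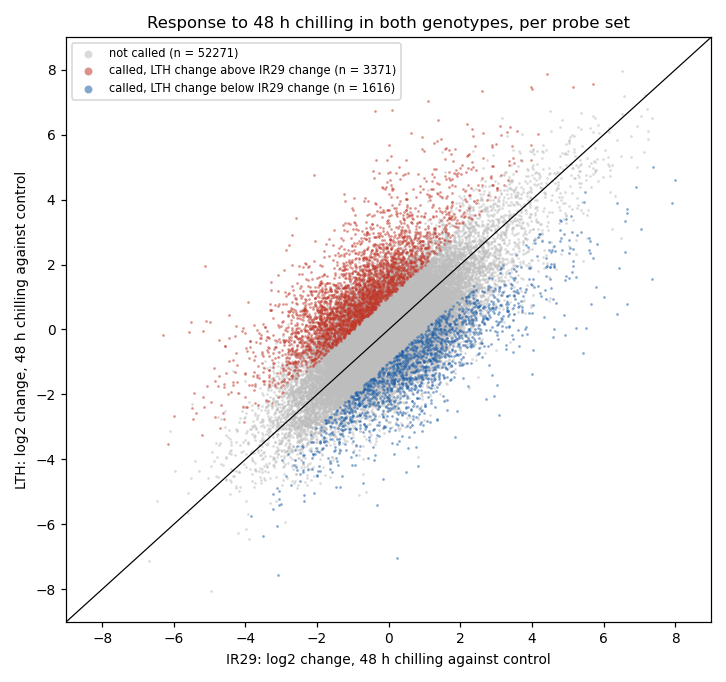
Log2 change from control to 48 h in IR29 (horizontal axis) and in LTH (vertical axis), 1 point per probe set, with the line of equal change. The 3371 called probe sets above the line (red) outnumber the 1616 called below it (blue).

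The arrays of the chilled groups agreed less well than those of the controls. Pearson correlations over all probe sets between arrays of one group ran from 0.959 to 0.977 in the controls, from 0.952 to 0.962 in LTH at 48 h and from 0.913 to 0.955 in IR29 at 48 h, where array 2 stood farthest from array 3. Without array 2 of IR29 at 48 h, 3856 probe sets were called positive and 1612 negative. Median intensities of the 12 arrays lay between 10.21 and 11.06. The leaf markers RBCS, RCAA1 and CAB2R were all present at high intensity, with sums between 14170 and 15909 on the control arrays of both genotypes.

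At 48 h, 25.5% of all probe sets had changed in LTH (12.3% higher, 13.1% lower) and 24.4% in IR29 (10.6% higher, 13.8% lower), each in its own test against the controls. The called differences were mostly one-sided. Among the positive ones, LTH alone rose in 1260 probe sets (37.4%) and IR29 alone fell in 1164 (34.5%), where "alone" means that the change of the other genotype did not pass the same test. Among the negative ones, LTH alone fell in 580 (35.9%) and IR29 alone rose in 533. The genotypes moved in opposite directions, both past the test, in only 164 positive and 47 negative probe sets, and in 410 and 142 neither change passed although their difference did. Both genotypes rose in 243 positive probe sets, LTH more, and in 125 negative ones, IR29 more. Both fell in 189 negative probe sets, LTH more, and in 130 positive ones, IR29 more.

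**Figure D2:**
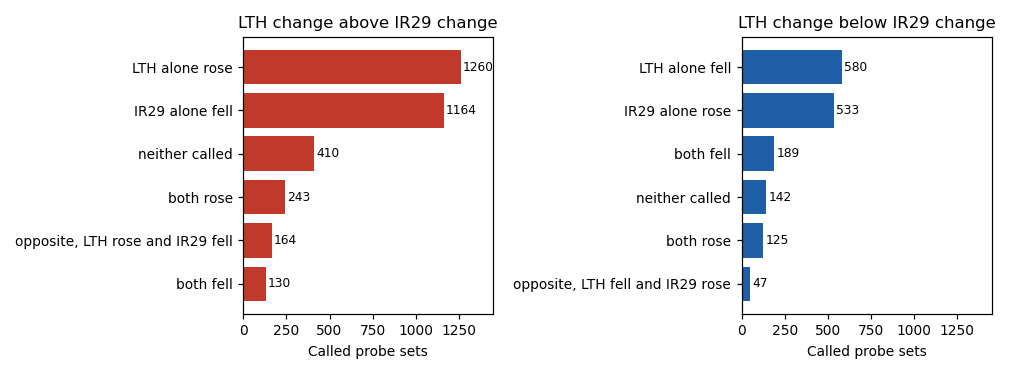
Number of called probe sets by the response of each genotype, for positive (left) and negative (right) genotype differences. One-sided responses make the 2 longest bars of each panel, 1260 and 1164 on the left, 580 and 533 on the right.

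The genotypes differed in 7.5% of probe sets before chilling (LTH higher in 4.07%, lower in 3.44%) and in 15.8% at 48 h (9.29% and 6.5%). For most called differences no gap was called in the controls and one was called at 48 h. A gap that is not called can still be present, and the genotype difference shares the control arrays with it. In 2120 of the 3371 positive probe sets (62.9%) the genotypes were not called different in the controls and LTH stood higher at 48 h. In 362 more, LTH stood lower in the controls and the gap was no longer called at 48 h, and in 83 the order turned over. Of the 1616 negative probe sets, 867 (53.7%) had no called gap in the controls and LTH lower at 48 h, while 251 started with LTH higher and had no called gap after the chill. Sequence differences between the genotypes under the probes can set a gap in the controls, and their part was not tested.

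Genes that rose in LTH alone were led by CCR1, a cinnamoyl-CoA reductase at the entry to lignin synthesis. Its intensity was 2.8, 2.87 and 2.62 in LTH controls and 162, 97.4 and 174 in LTH at 48 h, against 3.45, 2.02 and 5.28 in IR29 controls and 3.8, 3.36 and 2.95 in IR29 at 48 h. All 3 chilled LTH arrays lay far above the other 9, and the other 9 overlapped near the bottom of the scale. The LTH rise was 50.8-fold, and the genotype difference was 5.65 ± 0.65 (log2, SE; adjusted p = 1.22e-06).

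PP2C68, a protein phosphatase 2C of the group that restrains ABA signalling, started lower in LTH and ended higher. It read 55.8, 62.8 and 42.5 in LTH controls and 540, 1481 and 555 at 48 h. In IR29 it read 238, 163 and 233 in controls and 109, 170 and 237 at 48 h, so the IR29 groups overlapped while the LTH groups were far apart. Before chilling LTH was 3.93-fold lower, at 48 h it was 4.66-fold higher, and the genotype difference was 4.19 ± 0.70 (adjusted p = 0.000154).

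Other genes that rose in LTH alone had other roles. HOX24, a homeodomain-leucine zipper factor, and LAC24, a laccase, a class of enzymes that oxidise lignin precursors, had differences of 4.59 ± 1.2 and 4.50 ± 1.00, each with wide spread between arrays. CYP71P1, the cytochrome P450 that makes serotonin from tryptamine, went from a mean of 109 to 927 in LTH and read 306 in IR29 in both conditions (difference 3.06 ± 0.48). For HSFA4D, a heat shock factor whose loss gives spotted leaves, the LTH mean climbed from 72.6 to 611, against 100 and 134 in the IR29 groups (2.70 ± 0.40). SAT4, a serine acetyltransferase that supplies cysteine synthesis, rose 3.85-fold in LTH, and its IR29 change of -0.42 did not pass the test. EIL1B, a relative of the ethylene factor EIN3, rose 11.1-fold in LTH, but IR29 carried little signal at this probe set in either state, at 9.87 and 19.5, and its difference of 2.49 ± 0.50 was taken from that low IR29 baseline. EIL1A, its bright relative, had a difference of 0.02.

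Genes that fell in IR29 alone included several transporters. PT4, a phosphate transporter, read 74.3, 59 and 52.6 in LTH controls and 72.3, 70.1 and 58.9 at 48 h. In IR29 it read 245, 252 and 292 in controls and 13, 23.8 and 8.32 at 48 h. The LTH groups overlapped, whereas the IR29 groups were separated by a 19.1-fold fall, and the difference was 4.38 ± 0.47 (adjusted p = 4.7e-07). IR29 thus held 4.28 times the LTH level before the chill and LTH held 4.87 times the IR29 level after it.

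ZIP8, a zinc transporter, also fell in IR29 alone. Its intensity was 50, 70.2 and 60.3 in LTH controls and 83.7, 118 and 107 at 48 h, against 115, 136 and 143 in IR29 controls and 14.3, 25.1 and 16 at 48 h. The IR29 fall was 7.3-fold, the LTH change of 0.77 stayed under 2-fold, and the difference was 3.64 ± 0.40 (adjusted p = 6.97e-07). AMT1-1, an ammonium transporter, fell 3.67-fold in IR29 from a mean of 1247 to 357 and read 1045 and 1264 in LTH. Lsi6, a silicon channel of the aquaporin family, fell from 1082 to 439 in IR29 and read 811 and 1158 in LTH.

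LPR2, a multicopper oxidase named for the low phosphate root response of Arabidopsis, fell in IR29 from 265, 213 and 320 to 17, 29.4 and 8.42. In LTH it read 468, 525 and 472 in controls and 514, 515 and 345 at 48 h, and these 6 values overlapped. The difference was 3.91 ± 0.49 (adjusted p = 4.6e-06). CKX4, which degrades cytokinin, fell 14.5-fold in IR29, and LOGL9, of the family that activates it, fell 3.75-fold, with LTH changes of -0.37 and 0.33 that did not pass. They were 2 of the 3 called among 32 gibberellin and cytokinin genes (9.38%, all positive, with a median of 0.14 over the list), a share near the 8.71% called positive among all named genes. CSLE1, a cellulose synthase-like protein, fell 9.29-fold in IR29 alone, and Trx10, an h-type thioredoxin, 3.27-fold.

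The largest positive difference among genes with a name and a mean of at least 100 in 1 of the groups, that of the small heat shock protein HSP16.0, came from the controls. It read 838, 641 and 940 in IR29 controls and 5.12, 13.3 and 15.1 in IR29 at 48 h, while all 6 LTH values were between 1.85 and 3.57. Its difference of 6.14 ± 1.04 is therefore a fall in IR29 from a level that none of these LTH arrays had.

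SAPK1, an SnRK2 kinase of rice, moved in opposite directions in the genotypes. It read 179, 264 and 245 in LTH controls and 630, 552 and 423 in LTH at 48 h, and 239, 228 and 289 in IR29 controls and 92.1, 93.2 and 79.5 in IR29 at 48 h. The controls of the genotypes overlapped and the chilled groups did not. LTH rose 2.33-fold, IR29 fell 2.85-fold, and the difference was 2.73 ± 0.31 (adjusted p = 9.84e-07). DI19-6, a zinc finger protein of a family named for drought induction in Arabidopsis, rose 2.08-fold in LTH and fell 4.44-fold in IR29. MHX1, named after the magnesium and proton exchanger of Arabidopsis vacuoles, rose 2.13-fold and fell 2.38-fold.

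**Figure D3:**
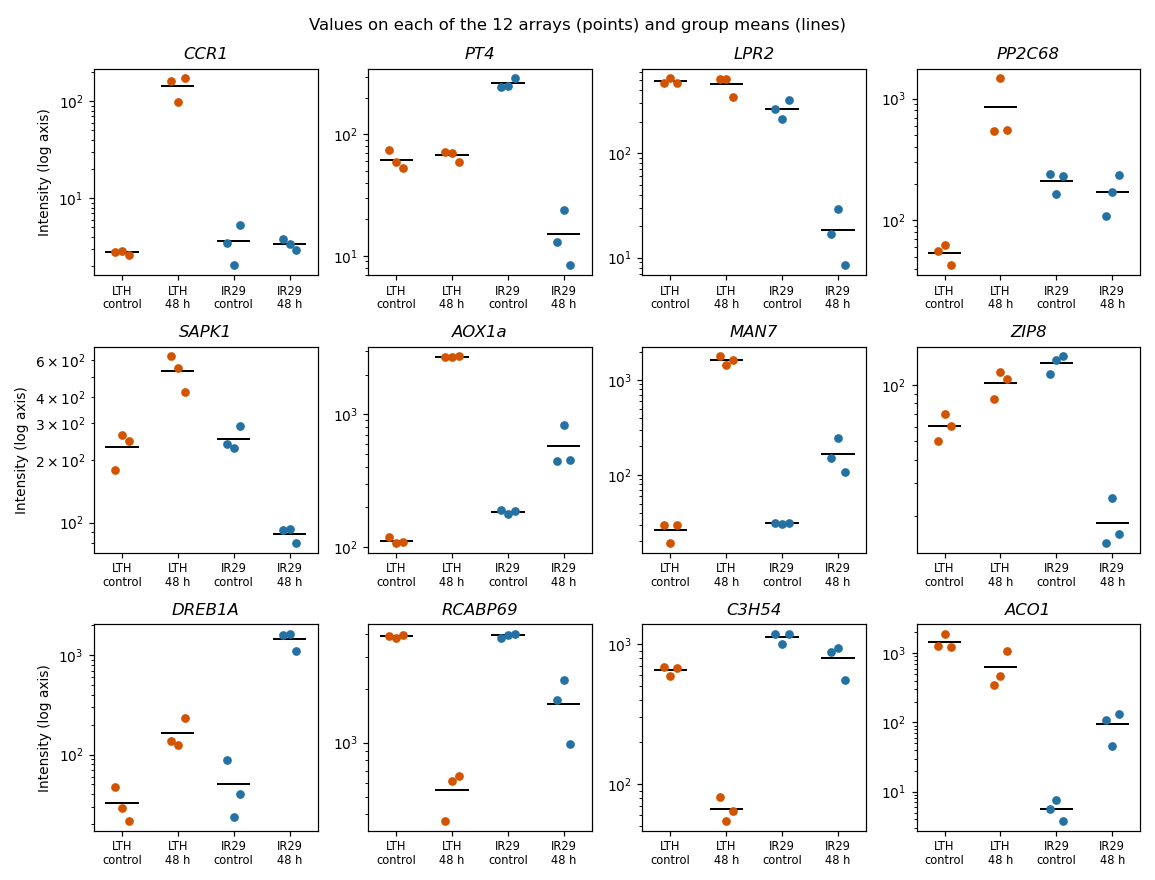
Intensity on a log axis of 12 genes on each of the 12 arrays (orange LTH, blue IR29), with a line at each group mean; axis ranges differ between panels. CCR1 is high only on the chilled LTH arrays (97.4 to 174), PT4 and LPR2 are low only on the chilled IR29 arrays, and SAPK1 moves in opposite directions.

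Among genes that rose in both genotypes, LTH rose more in MAN7, AOX1a, LOX9 and OPR4. AOX1a, the alternative oxidase that lets mitochondrial electrons bypass part of the respiratory chain, read 118, 106 and 109 in LTH controls and 2699, 2707 and 2770 at 48 h, against 189, 176 and 186 in IR29 controls and 445, 832 and 453 at 48 h. No chilled IR29 array came near the chilled LTH arrays. The rise was 24.5-fold in LTH and 3.01-fold in IR29, a difference of 3.03 ± 0.39 (adjusted p = 6.11e-06). MAN7, an endo-mannanase that cuts wall mannans, rose 62.6-fold and 5.09-fold. LOX9, a lipoxygenase, rose 17.2-fold and 2.27-fold, and OPR4, an oxophytodienoate reductase, 12.6-fold and 2.7-fold. PIN5A, an auxin transporter, fell in both, 3.34-fold in LTH and 27-fold in IR29.

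DREB1A, a CBF factor of the cold response, showed the reverse. It read 46.9, 29.2 and 21.3 in LTH controls and 137, 124 and 233 at 48 h, and 87.6, 23.6 and 40 in IR29 controls and 1599, 1641 and 1101 at 48 h. The controls overlapped, and after the chill the lowest IR29 array was still above the highest LTH array. LTH rose 5.14-fold and IR29 32.7-fold, so the genotype difference was -2.67 ± 0.65 (adjusted p = 0.00655). DREB1A was the only one of 8 measured DREB1 and DREB2 genes called. That is 12.5% negative and 0 positive, beside 3.91% and 8.71% over all named genes, and so short a list holds few calls either way. The difference of DREB1B was -0.16 ± 1.01, on rises of 25.1-fold and 28-fold, and that of DREB2B was 0.66 ± 0.23 (adjusted p = 0.0671).

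MYB2, a stress-responsive MYB factor, also rose more in IR29, from a mean of 44.5 to 1895, against 40.3 to 621 in LTH (-1.54 ± 0.41). CPK21, a calcium-dependent kinase, rose in IR29 from 1.59 to 128, against 3.03 to 40.1 in LTH (-2.49 ± 0.71), both from near the floor, and lost its call in 5 of the 12 fits with 1 array left out. JAZ9, a repressor of jasmonate responses, had a difference of -2.07 ± 0.66 (adjusted p = 0.0399), which did not pass in 9 of the 12 fits with 1 array left out. CDKE-1 rose 22.6-fold in IR29 and 3.82-fold in LTH on the probe set used, but a second probe set of mean intensity 296 gave -0.52 (adjusted p = 0.131), so its difference of -2.56 depends on the probe set.

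Of the photosystem and light-harvesting genes 4 fell in LTH and 5 in IR29, and 2 of them fell further in LTH. RCABP69, a chlorophyll a/b-binding protein, read 3915, 3848 and 3962 in LTH controls and 365, 609 and 653 at 48 h. In IR29 it read 3834, 3999 and 4035 in controls and 1732, 2228 and 979 at 48 h. The controls were at one level, the chilled groups did not overlap, and the falls were 7.44-fold in LTH and 2.54-fold in IR29 (difference -1.55 ± 0.34; adjusted p = 0.00256). CAB2R, another chlorophyll a/b-binding protein, fell 6.83-fold and 2.61-fold (-1.39 ± 0.41), but this call was lost in 8 of the 12 fits with 1 array left out. Trx08, an m-type thioredoxin of the chloroplast, fell 8.54-fold in LTH and 2.43-fold in IR29 (-1.81 ± 0.25; adjusted p = 1.54e-05).

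Of these 6 genes 1 was called positive, PSB28, a photosystem II factor that fell in IR29 alone. Rubisco activase (RCAA1) and the small subunit gene RBCS, of the Calvin cycle list, were not called, with differences of 0.15 and 0.31. In the chlorophyll list of 10 genes, the dim synthesis gene CHL9, which fell in both genotypes, was called negative at -2.17, and SGR and NYC1, which act in chlorophyll breakdown, were called positive at 3.05 and 1.65. The list median was -0.73, and 7 of its genes fell in LTH and 6 in IR29. At an unadjusted limma p below 0.05, 2 were positive and 5 negative. The NYC1 call was lost in 5 of the 12 fits with 1 array left out. Among 15 superoxide dismutases, catalases and ascorbate enzymes 0 were called positive (1 at an unadjusted limma p below 0.05) and 3 negative (20%). The shares were 16.7% positive and 33.3% negative in the photosystem list and 20% and 10% in the chlorophyll list. Over all named genes they were 8.71% and 3.91%, and lists this short hold few calls either way. The catalase CATA fell in LTH alone (-1.19), the plastid superoxide dismutase sodCp fell in both, further in LTH (-1.06), and the ascorbate peroxidase APX5 fell 4.08-fold in LTH from a mean of 108, with IR29 at or below 11.9 on all arrays. The CATA and sodCp calls were lost in 7 and 4 of the 12 fits.

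Among genes that fell in LTH alone, C3H54, a CCCH zinc finger protein, went from 686, 589 and 681 to 80.8, 54.4 and 64.3 in LTH. In IR29 it read 1182, 995 and 1185 in controls and 878, 942 and 551 at 48 h. The LTH fall was 9.9-fold, the IR29 change was -0.54, short of the test, and the difference stood at -2.77 ± 0.50 (adjusted p = 0.000397). SWEET1A, a sugar transporter, fell 4.33-fold in LTH and read 709 and 702 in IR29 (-2.10 ± 0.59). PMT, the transferase that adds p-coumarate to monolignols, fell 3.79-fold in LTH, and its IR29 change of 1.01 did not pass.

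ACO1, an ACC oxidase of ethylene synthesis, had the largest negative difference among the same genes, -5.37 ± 0.68 (adjusted p = 4.46e-06). It read 1277, 1903 and 1211 in LTH controls and 345, 466 and 1068 at 48 h, and 5.58, 7.69 and 3.73 in IR29 controls and 109, 46.3 and 132 at 48 h. LTH stayed above IR29 on all arrays, but the gap closed from 264-fold to 6.37-fold.

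Genes that rose in IR29 alone included GRF1, EXPA1 and GRXC10, with wide spread between arrays. GRF1, a growth-regulating factor, went from a mean of 14.5 to 342 in IR29 and from 50.9 to 145 in LTH (-3.39 ± 0.98). EXPA1, an expansin that loosens cell walls, read 18.4, 38.3 and 24.8 in IR29 controls and 105, 50.6 and 223 at 48 h, and GRXC10, a glutaredoxin, read 200, 90.8 and 367 in IR29 at 48 h. In both, array 2 was the lowest and array 3 the highest of the chilled IR29 arrays. The summed intensity of 14 dividing-cell markers (PCNA, MCM, CDKB, CYCB and ORC genes) on the same arrays was 665, 321 and 1101, in the same order. GRF1, at 315, 364 and 347 on these arrays, did not follow that order. In LTH at 48 h the sums were 691, 474 and 905. There EXPA1 read 12, 23.2 and 66.7 and GRXC10 34.4, 57.6 and 128, in another order than the sums. The sums ranged from 243 to 852 in IR29 controls and from 1213 to 1463 in LTH controls. The part of dividing tissue in these results was not tested, and in leaf RNA more cells of a type and more RNA per cell cannot be told apart. EXPA1 lost its call in 9 of the 12 fits with 1 array left out, GRF1 in 4 and GRXC10 in 2. PM19L1, which codes for an AWPM-19-like membrane protein and fell in LTH alone, had a difference of -3.57 ± 1.07 and lost its call in 7.

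Of the 14 dividing-cell markers 13 had a difference below 0, but none of these was called, and 1, the dim CYCB1-3, was called at 2.25. At an unadjusted limma p below 0.05, 1 marker was negative. Of 5 shoot meristem and 3 secondary wall markers 0 were called, and 0 passed an unadjusted p. Over all named genes 8.71% were called positive and 3.91% negative, so marker lists this short hold few calls either way. The meristem list is carried by HOS59, with OSH1 at or below a mean of 44.5 in every group. Root markers were low throughout, at sums between 32.8 and 97.1, and 1 of 2, SCR1, was called at 1.21 (adjusted p = 0.0334), with means of 54 and 75 in LTH and 56.7 and 35.8 in IR29. Of 3 senescence markers SGR and NYC1 were called. Their summed level lay between 838 and 908 in LTH controls and between 2550 and 3424 in LTH at 48 h, and the IR29 groups overlapped, at 1352 to 1444 and 1327 to 1523.

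**Figure D4:**
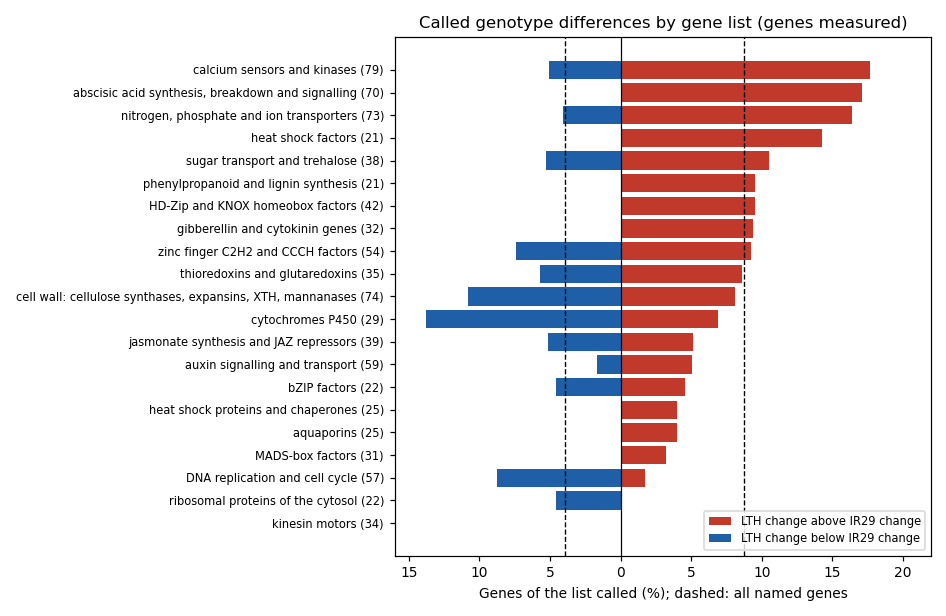
Share of genes called in each list with at least 20 measured genes, positive to the right and negative to the left; numbers in brackets are genes measured, and dashed lines mark the shares over all named genes, 8.71% and 3.91%. Calcium, ABA and transporter lists are longest to the right, and the cytochrome P450 and cell wall lists longest to the left.

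Gene lists were read against the 2458 genes with a name, 1 probe set each. Of these, 214 (8.71%) were called positive and 96 (3.91%) negative, with a median difference of 0.04. The counts over these genes at an unadjusted limma p below 0.05 were 517 and 285. Of 70 genes in the list of ABA synthesis, breakdown and signalling, 12 (17.1%) were called positive and 0 negative, with a median of 0.51; at an unadjusted limma p below 0.05 the counts were 23 and 4. The 12 were 10 protein phosphatases 2C of 52 and 2 SnRK2 kinases of 9: PP2C68, PP2C09, PP2C48, PP2C25, PP2C30, PP2C64, PP2C26, PP2C02, PP2C72 and PP2C54, and SAPK1 and SAPK5. Only one clade of these phosphatases, with PP2C68, PP2C09 and PP2C30 in it, is tied to the ABA receptors, and roles of the others are not given here. PP2C09, in that clade, rose 2.52-fold in LTH with an IR29 change of -0.87 (difference 2.20 ± 0.48; adjusted p = 0.0024). ABA8OX1, the brightest gene of the list not called, which breaks ABA down, rose in both, from 73.2 to 2188 in LTH against 244 to 4081 in IR29.

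The 79 calcium sensors and kinases held 14 positive calls (17.7%) and 4 negative (5.06%), with a median of 0.20. Counts at an unadjusted limma p below 0.05 were 22 and 9. Of the 14, 7 were among the 24 CIPK kinases, which bind CBL calcium sensors and had a median of 0.55, 3 were calmodulin-like genes and 2 were CBL sensors. CIPK18 rose 3.12-fold in LTH, and its IR29 change of -0.51 did not pass (2.15 ± 0.52). The sensors themselves split: CBL4 was called at 2.55, on 20.3, 105 and 24.6 in chilled IR29 and 309, 243 and 191 in chilled LTH, and CBL9 and CBL2 were called negative at -2.01 and -1.53. The CBL4 call was lost without array 1 or array 3 of IR29 at 48 h. The 4 negative calls fell to 0 without array 2 of LTH at 48 h and to 1 without array 1 of LTH controls, array 1 of LTH at 48 h or array 2 of IR29 controls.

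The 73 nitrogen, phosphate and ion transporters held 12 positive (16.4%) and 3 negative (4.11%) calls, with a median of 0.09. Besides PT4, ZIP8 and AMT1-1 the positive ones were YSL16, YSL4, YSL9 and NRAMP3 of the iron and metal carriers, HAK27, HAK23 and HAK12 of the potassium carriers, AMT3-2, and the brighter of both genes listed as ZIP3. Of the list 20 genes fell in IR29 and 12 in LTH. Negative were PT8, which rose by 2.08 on the log2 scale in IR29, HAK3 and AMT2-3, a count that fell to 0 without array 2 of LTH at 48 h. HAK5, the brightest gene not called, had a difference of 0.13. With an unadjusted limma p below 0.05 the list had 21 positive and 15 negative genes, beside 517 and 285 over all named genes.

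The 74 cell wall genes held 6 positive (8.11%) and 8 negative (10.8%) calls, with a median of -0.89. Negative were the cellulose synthase-like genes CSLD5, CSLD2, CSLC7 and CSLC1, the expansins EXPA1 and EXPA2, the expansin-like EXLA2 and the xyloglucan enzyme XTH8. The CSLC1 call was lost in 9 of the 12 fits with 1 array left out and in 3 of the 8 other settings. This negative count was 4 without array 1 of LTH controls or array 1 or 3 of IR29 controls, and 10 without array 3 of LTH at 48 h. The positive count was 3 without array 1 of LTH at 48 h. With an unadjusted limma p below 0.05 the list had 7 positive and 20 negative genes. The 57 genes of DNA replication and the cell cycle held 5 negative calls (8.77%) and 1 positive (1.75%), at a median of -0.77. Counts at an unadjusted limma p below 0.05 were 11 negative and 2 positive. ORC2, which helps to mark replication origins, fell 2.44-fold in LTH. The 34 kinesin motors, with a median of -0.75, had 0 calls, and at an unadjusted limma p below 0.05 they had 3 positive and 5 negative.

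Regulators of other families were called in both directions. Zinc finger factors of the C2H2 and CCCH types had 5 positive (9.26%) and 4 negative (7.41%) calls among 54, beside 8.71% and 3.91% over all named genes. Their counts at an unadjusted limma p below 0.05 were 16 and 6. The 15 bHLH factors had 0 positive calls (also 0 at an unadjusted limma p below 0.05) and 1 negative (6.67%). Of 42 homeobox factors 4 were called positive and 0 negative (7 and 3 at an unadjusted limma p below 0.05). That positive share, 9.52%, is near the 8.71% over all named genes, and the list median was -0.09. The called ones included HOX24 and Hox22. Hox22 read 298, 368 and 335 in LTH controls and 815, 1188 and 1175 at 48 h, while the IR29 arrays ran from 679 to 1113. WRKY24, a defence-related factor, rose 39.1-fold in LTH and 11-fold in IR29 (1.83 ± 0.46). WRKY71 was called at 1.23 on its brighter probe set and not on the other, at 0.22. MPK14, a MAP kinase, rose 3.08-fold in LTH (1.39 ± 0.22; adjusted p = 9.43e-05), with IR29 at 890 and 1066, whereas MPK4 fell 2.29-fold in LTH and had a difference of -1.01 that sat at the fold limit. ARF18, an auxin response factor, rose 4.17-fold in LTH, with IR29 at 328 and 396 (1.79 ± 0.31).

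Other lists held few calls, to be read beside the 8.71% called positive and 3.91% called negative over all named genes. Of 22 cytosolic ribosomal proteins 1 was called, at a median of -0.17, and of 25 aquaporins 1, Lsi6, although 11 fell in LTH and 9 in IR29. Of 25 heat shock proteins and chaperones only HSP16.0 was called, and 3 of 21 heat shock factors were: HSFA4D, HSFC2A at 2.43 ± 0.55 and HSFA6B at 2.23 ± 0.71, the last lost in 9 of the 12 fits with 1 array left out. Calls were 0 among 8 NAC factors, 8 LEA proteins and dehydrins and 12 clock genes, of which 3, 0 and 5 had an unadjusted limma p below 0.05. In sulfate assimilation, SAT4 and APRL1, a relative of the adenosine phosphosulfate reductases, were called of 11 genes, at 2.37 and 1.33, and the median was 0.67. The APRL1 call was lost in 4 of the 12 fits.

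Among genes that the study's text names, MYB3R-2, a cold-related MYB factor, rose 4.05-fold in LTH, with 1.88-fold in IR29 under the fold limit, and its difference of 1.10 ± 0.21 was called (adjusted p = 0.00049). Without array 1 of LTH at 48 h it was 0.99, under the fold limit. MYBS3 rose in LTH from 826, 1117 and 977 to 2921, 2766 and 2941, and read 1163, 1211 and 1388 in IR29 controls and 2271, 2541 and 2139 at 48 h. On this probe set, the brighter one, its difference of 0.69 ± 0.16 passed the adjusted p (0.00338) but not the 2-fold limit. A second MYBS3 probe set, of mean intensity 201, gave -0.07 (adjusted p = 0.903), so this difference depends on the probe set. AdoMetDC, the polyamine enzyme also called SAMDC, gave 0.31 ± 0.12 on its brighter probe set and 2.80 (adjusted p = 3.31e-05) on a dimmer one, so the call depends on the probe set. Of 57 other probe sets of the named genes, 46 gave the same call, 11 differed in the call and none was called in the other direction. Many of the 46 belong to genes not called, where the same call means no call on either probe set. Among called genes, another probe set of CYP71P1, LOX9, WRKY71, CYP701A19, PMM, BGLU3, SWEET1A, CDKE-1 and PM19L1 was not called. Only 3 of the 11 had a mean intensity of at least 100.

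The genotype difference at the earlier times shares the controls with that at 48 h, so its values are only set side by side. Over 2, 8, 24 and 48 h of cold, SAPK1 had values of 1.66, 1.84, 2.35 and 2.73, and -0.34 after 24 h of recovery at 29 °C. CCR1 had -0.13, 3.64, 4.88 and 5.65, and -0.56 in recovery. The differences of LPR2 and PIN5A were still 2.97 and 4.70 in recovery, while those of PT4 and AMT1-1 were 0.46 and -0.06.

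DREB1A differed from the first time on, at -3.04, -3.03, -2.35 and -2.67, and stood at -0.27 in recovery. RCABP69 widened from -0.29 at 2 h to -0.72, -1.28 and -1.55, and was at 1.4 in recovery, when LTH stood higher relative to its control than IR29 did. ACO1 went from -0.41 to -1.77, -3.41 and -5.37.

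**Figure D5:**
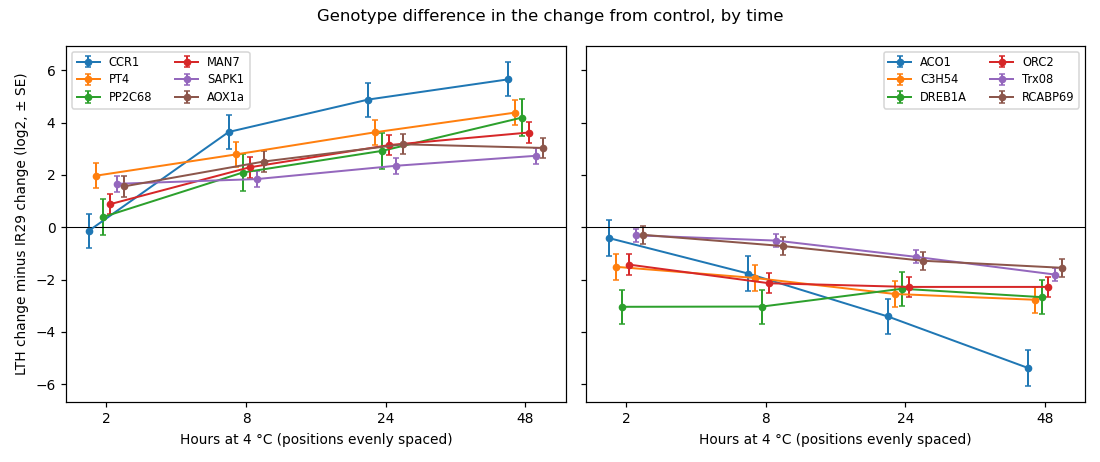
Genotype difference (log2, ± SE) at 2, 8, 24 and 48 h of chilling for 6 genes with positive (left) and 6 with negative (right) values at 48 h; all points share the control arrays. CCR1 goes from -0.13 to 5.65, whereas DREB1A is at -3.04 at 2 h and at -2.67 at 48 h.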

How the data were processed

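Leaf RNA of 36 samples, 12 groups of 3, was hybridised to the Affymetrix rice genome array. The authors normalised the scans with dChip and deposited linear intensity values per probe set; these were raised to a floor of 1 and taken to log2 here. Group means over all 36 arrays were fitted with limma 3.58.1 in R 4.3.3, with eBayes and an intensity trend, and the 4 groups of 48 h chilling and control were contrasted. Calls needed an adjusted p below 0.05 and a change of at least 2-fold. The p-values rest on a spread per probe set that limma pooled over all 12 groups and moderated, not on the spread of the 4 groups alone. Array number limits precision. Fitted on the 4 groups alone, 4075 of the 4987 calls stayed and 9 named calls were lost. On simulated data 50.7% of differences of 1.5 (log2), 71.6% of 2 and 90.9% of 3 were called. There were 10 false calls among 57058 unchanged probe sets. The simulated differences were placed in brighter probe sets only, and each probe set had the same spread in every group. In the measured data, for means of at least 100, the median SD was 8.48% of the mean in IR29 controls. It was 20.8% in IR29 at 48 h. Calling at low intensity or with such unequal spread was not simulated.

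Probe sets were tied to genes with GEO's platform annotation and named through a RefSeq gene table (assembly ASM3414082v1), used for names only: 22436 had 1 gene, 95 several and 34727 none listed, and 3194 had a gene with a name. No sequences were used here. Where a gene had several probe sets, the one with the highest mean over 36 arrays stood for it. The genes named are those with a name and a mean intensity of at least 100 in 1 of the 4 groups that had the 6 largest differences in each direction, the 3 largest in each response pattern and direction, up to 3 called members and the brightest uncalled member of each list, and genes the study's text names; genes named beyond these, such as further called PP2C, calcium, transporter and cell wall genes and the markers, were chosen after their values were seen. The comparison, its members and the 48 gene lists were chosen with earlier results of these data known. Alternatives were normalization, floor, filter, samples fitted, trend, replicate block, fold rule, test and leaving out each of the 12 arrays.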

Additional observations from a re-analysis of the deposited data

Results flagged for a closer look

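The genes here stand out because their 48 h change differed between LTH and IR29 by limma's interaction test. The values are log2 differences, LTH change minus IR29 change. Among the largest positive values were HSP16.0 at 6.14, CCR1 at 5.65, HOX24 at 4.59, LAC24 at 4.50, PT4 at 4.38 and PP2C68 at 4.19. Among the largest negative values were ACO1 at -5.37, PM19L1 at -3.57, GRF1 at -3.39, GRXC10 at -3.04, PMT at -2.94 and EXPA1 at -2.93. The named genes flagged for opposite directions were DI19-6 at 3.21, SAPK1 at 2.73 and MHX1 at 2.34, besides ACO1. They are a few of the 164 positive and 47 negative probe sets with that pattern. Groups of 3 arrays are too small for an outlier test.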

How the results depend on the processing

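With 1 array left out in turn, 2731 to 3856 probe sets were called positive and 1145 to 1842 negative. Genes called negative over all lists ranged from 21, without array 1 of LTH at 48 h, to 47, and named genes called at the earlier times from 8 to 20 at 2 h and from 22 to 42 at 8 h, lowest without array 3 of LTH controls and of IR29 controls, highest without array 2 of IR29 at 48 h. Of the 83 called named genes, 68 kept the call in all 8 other settings of scaling, floor, filter, samples, trend and block, 55 in all 12 fits with 1 array left out and 54 in both, and no named gene was called in the other direction.

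Quantile normalization gave 3021 positive and 1804 negative calls, and centring arrays on the median 3526 and 1513. Same-numbered deviations correlated between -0.257 and 0.077 from control to 48 h in LTH and between -0.498 and 0.024 in IR29, and not every sample correlated best with its own number. Between the genotypes they correlated at 0.139, 0.277 and 0.328 in the controls and at -0.003, 0.187 and 0.466 at 48 h. Both genotypes shared plates, but the labels do not say that a number marks a plate, so pairing was not assumed. The replicate block gave 3454 and 1663 as a fixed term and 3714 and 1906 as a random one, and of the named calls only that of CSLC1 was lost, under the fixed block. Without the intensity trend, 9 named genes were called at 2 h (14 with it). With no fold minimum, 544 probe sets were in the opposite pattern, 1423 moved the same way in both genotypes and 85 in neither.

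A test against a 2-fold minimum (treat) gave 459 positive and 109 negative calls, by pattern 4 opposite, 270 in LTH alone, 194 in IR29 alone, 12 in the same direction and 88 in neither. It called 2704 probe sets higher and 2625 lower in LTH, 1995 and 2575 in IR29, LTH above IR29 in 1019 and below in 662 in the controls, and in 1768 and 810 at 48 h. It called 14 list genes positive and 2 negative, and of the named genes 0 at 2 h, 1 at 8 h, 9 at 24 h and 14 in recovery. An unmoderated contrast gave 5089 and 3487 calls unadjusted, and 1043 negative after Benjamini-Hochberg. An unequal-variance t-test on the log2 values, with that adjustment and the 2-fold minimum, gave 3909 higher and 3451 lower in LTH, and 1717 and 2190 in IR29. The paper names a t-test at p below 0.05 in its results and states no such adjustment. With 3 arrays per group, precision differs between probe sets, at a median SE of 0.60 (log2).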
